A study of Rattus norvegicus with 16 samples.

Results

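The lateral habenula (LHb) was profiled under both anesthetics of the study, and its 4 arrays, of 16 in all, were taken by their labelled brain region. Each array held the LHb of 1 treatment: sevoflurane (2.4% for 60 min), O2 as its control, propofol (36 mg/kg per hour for 60 min after a bolus of 10 mg/kg), and Intralipos, a 10% lipid emulsion given on the same schedule as the vehicle of propofol. All groups were male Wistar rats of 8 to 10 weeks that breathed 40% oxygen at 6 L/min, so the O2 and Intralipos groups carried this exposure too. The other 12 arrays held the neighbouring medial part of the habenula (MHb) and a pair of hindbrain nuclei, the solitary (Sol) and the medial vestibular one (MVe), under the same treatments. The regions were cut by laser from Nissl-stained frozen sections. The labels do not say how many rats an array stands for, or whether the regions came from the same rats.

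The LHb is a small glutamatergic nucleus of the epithalamus that sends its output to midbrain and hindbrain centres, through which it restrains dopamine neurons and acts on serotonin neurons, and it is known for encoding aversive outcomes and negative prediction errors. Immediate early genes such as Egr1, Fos and Junb are transcribed within minutes of calcium entry and kinase signalling in neurons, without new protein synthesis, and are widely read as traces of recent activity. Stress hormones act on another set of genes through the glucocorticoid receptor, among them Sgk1 and Ddit4.

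Values are log2 signals, so a difference of 1 is a 2-fold difference, and 15037 genes were measured by 1 probe each, the brightest where a gene had several. Each group had 1 array. Differences between single arrays therefore have no replicate check and no test, and are described by their size: sevoflurane minus O2, propofol minus Intralipos, and the mean of both. Bulk tissue cannot tell fewer cells of a type apart from less RNA per cell. The sevoflurane and O2 arrays of the LHb had a mean of 7.55 and 7.54 over genes, and the propofol and Intralipos arrays of 7.31 and 7.30. Over all regions the sets of arrays differed in the same way, so levels across the sets cannot be told apart from a difference between the sets. Within a pair the arrays correlated at 0.9945 for sevoflurane and O2 and at 0.9934 for propofol and Intralipos (Pearson r across genes, which are not independent replicates).

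The label of the tissue was set against marker genes. Of 15 measured medial habenula markers, 11 were lower in all 4 LHb arrays than in all 4 MHb arrays and 1, Calb2, was higher. Over all genes, 11.1% were lower and 11.3% higher without overlap. Tac3, the neurokinin B precursor, lay between 8.37 and 11.50 in the LHb arrays, against 15.3 to 16.1 in MHb. Of 13 measured lateral habenula markers, 6 were higher in LHb without overlap, among them the serotonin receptor gene Htr2c at 16.3 to 16.8, against 12.2 to 12.9 in MHb, and the growth-cone gene Gap43 at 14.5 to 15.1, against 7.35 to 8.49. The other way, 4 of the 13 were lower in LHb, including Gpr151, an orphan receptor of habenular neurons, at 13.2 to 14.6 against 16.04 to 16.53 in MHb. Gpr151 was near the bottom of the scale in Sol, at 4.29 to 5.34, and in MVe, at 4.50 to 5.56. Gpr151 thus separated LHb from the hindbrain regions, and Htr2c and Gap43 separated it from MHb. With 6 of 13 higher and 4 lower, the lateral habenula list as a whole did not separate LHb from MHb. Gap43 was higher still in Sol, at 15.7 to 15.8. Most medial habenula markers were lower in LHb but not absent. Of 12 neighbouring thalamus markers, 3 were higher in LHb than in MHb without overlap, among them Cbln1 at 12.3 to 13.3 against 3.82 to 5.36, and 3 were lower. So were 10 of 11 astrocyte and 12 of 13 oligodendrocyte markers higher, and none lower. No array held thalamus, so LHb was not set against that tissue.

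The shared response was small. In the LHb, 81 genes were at least 1 log2 higher with sevoflurane than with O2 (0.539% of genes) and 74 were at least 1 log2 lower (0.492%). With propofol against Intralipos, 130 genes were higher by that size (0.865%) and 105 lower (0.698%). Only 3 genes, Egr1, Junb and Ppp1r1c, were higher by at least 1 log2 in both pairs (0.02% of genes), and 1 gene, Fuom, was lower in both (0.00665%). The 3 shared genes make up 3.70% of those higher with sevoflurane and 2.31% of those higher with propofol, and Fuom makes up 1.35% and 0.952% of those lower. Across the 15037 genes both differences had a Pearson r of 0.02, which is a description and not a test.

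**Figure D1:**
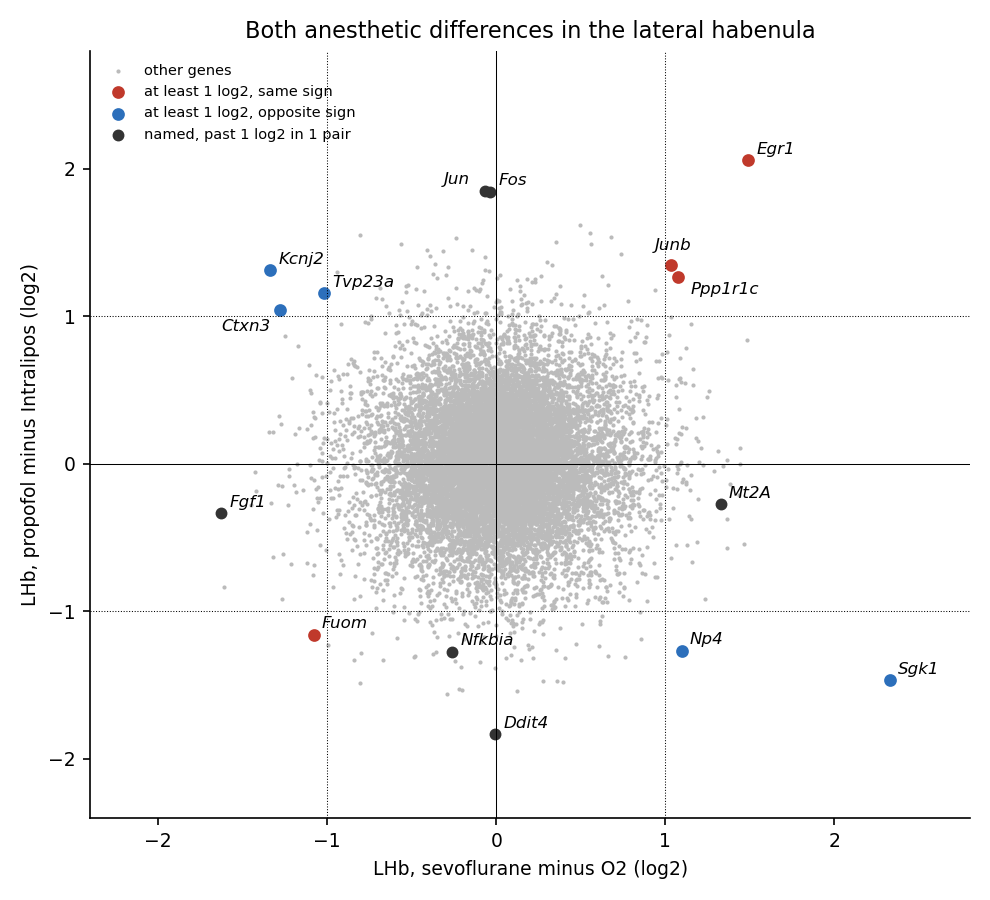
Each point is 1 gene in the lateral habenula, with sevoflurane minus O2 on the x axis and propofol minus Intralipos on the y axis, both in log2 units, and dotted lines at 1 log2. Egr1, Junb and Ppp1r1c lie beyond both lines at the upper right and Fuom at the lower left, while Sgk1 lies at the lower right, at 2.33 and -1.47.

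The promoters of the 4 shared genes are shown because these genes had the same sign and passed the same size in both pairs. Each is the 250 bases before the annotated start in RefSeq's GRCr8 table, 5' to 3' on the strand of the gene, and all 4 genes matched. Capitals mark matches to the serum response element (CArG box), by which serum response factor acts on immediate early genes, and to TGACG, the core of the cAMP response element, on either strand. The Egr1 promoter lies at chr18:26736828-26737077 on the plus strand, that of Junb at chr19:40080876-40081125 on the plus strand, that of Ppp1r1c at chr3:85023371-85023620 on the plus strand and that of Fuom at chr1:204322691-204322940 on the minus strand.
Egr1: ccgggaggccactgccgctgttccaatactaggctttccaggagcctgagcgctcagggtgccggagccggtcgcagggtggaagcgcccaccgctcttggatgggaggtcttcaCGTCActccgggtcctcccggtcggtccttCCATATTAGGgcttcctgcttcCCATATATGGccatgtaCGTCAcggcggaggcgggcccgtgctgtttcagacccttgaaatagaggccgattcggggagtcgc
Junb: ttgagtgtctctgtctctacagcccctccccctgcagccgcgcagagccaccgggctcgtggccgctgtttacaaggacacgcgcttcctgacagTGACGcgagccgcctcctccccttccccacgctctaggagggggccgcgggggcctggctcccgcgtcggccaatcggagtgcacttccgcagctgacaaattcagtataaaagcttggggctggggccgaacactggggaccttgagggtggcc
Ppp1r1c: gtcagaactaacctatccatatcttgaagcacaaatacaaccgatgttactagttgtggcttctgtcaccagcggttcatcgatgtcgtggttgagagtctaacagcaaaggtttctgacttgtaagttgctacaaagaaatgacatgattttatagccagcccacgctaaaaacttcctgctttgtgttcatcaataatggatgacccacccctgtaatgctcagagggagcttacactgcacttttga
Fuom: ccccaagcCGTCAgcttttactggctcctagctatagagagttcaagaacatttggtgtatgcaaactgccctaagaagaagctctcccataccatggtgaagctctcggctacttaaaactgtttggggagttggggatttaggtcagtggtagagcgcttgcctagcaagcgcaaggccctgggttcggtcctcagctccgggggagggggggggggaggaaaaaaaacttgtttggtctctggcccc

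The Egr1 window held 2 CArG boxes, at -105 to -96 and -83 to -74 from the start, and 2 matches to TGACG on the minus strand, at -135 to -131 and -66 to -62. Junb held 1 match to TGACG, at -155 to -151, and Fuom held 1 on the minus strand, at -242 to -238. Neither motif was in the Ppp1r1c window. Of the 33469 promoter windows of this length in the table, 1.5% hold a CArG box and 18.2% hold TGACG on either strand. The full cAMP response element (TGACGTCA, in 1.59% of windows), the glucocorticoid response element (AGAACA and TGTTCT with 3 bases between, in 0.012%) and the EGR site (GCGTGGGCG, in 0.478%) were in none of these 4 windows. TGACG lies inside TGACGTCA, and the other motifs do not contain each other. A match is a description of the letters and not a measured binding site.

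Egr1 encodes a zinc-finger transcription factor of the immediate early class. Its log2 level in the LHb was 12.29 with sevoflurane, against 10.80 with O2, and 14.08 with propofol, against 12.02 with Intralipos. It was thus 2.81-fold higher with sevoflurane and 4.17-fold higher with propofol, a mean log2 difference of 1.77, and in each pair the anesthetic array was the higher. Junb, a subunit of the AP-1 transcription factor, had levels of 6.62 with sevoflurane, against 5.58 with O2, and 7.11 with propofol, against 5.76 with Intralipos. These levels sit around the median of all gene values, 6.86, and the differences were 1.03 and 1.35 log2. Here too the anesthetic array was the higher of each pair.

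Ppp1r1c encodes an inhibitor of protein phosphatase 1. Its level was 8.20 with sevoflurane, against 7.12 with O2, and 7.21 with propofol, against 5.95 with Intralipos. The differences were 1.08 and 1.27 log2. Fuom encodes fucose mutarotase, which interconverts the forms of the sugar fucose. It had 6.27 with sevoflurane, against 7.35 with O2, and 5.98 with propofol, against 7.13 with Intralipos, with differences of -1.08 and -1.16 log2. Both anesthetic arrays of Fuom lay below the median of all gene values and both control arrays above it.

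The limit of 1 log2 had close neighbours on its other side. Hpca, which encodes the neuronal calcium sensor hippocalcin, was 1.04 higher with sevoflurane and 0.99 higher with propofol, and the olfactory receptor gene Or7e169c 1.15 and 0.95. Among lower genes, Psg19 had differences of -0.998 and -1.23, and Pih1d2 of -1.27 and -0.92. With a limit of 0.5 log2 in both pairs, chosen after the values were seen, 156 genes were higher and 125 lower in both, and 235 had opposite signs. Of these 235, 124 were higher with sevoflurane and lower with propofol, and 111 the reverse.

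**Figure D2:**
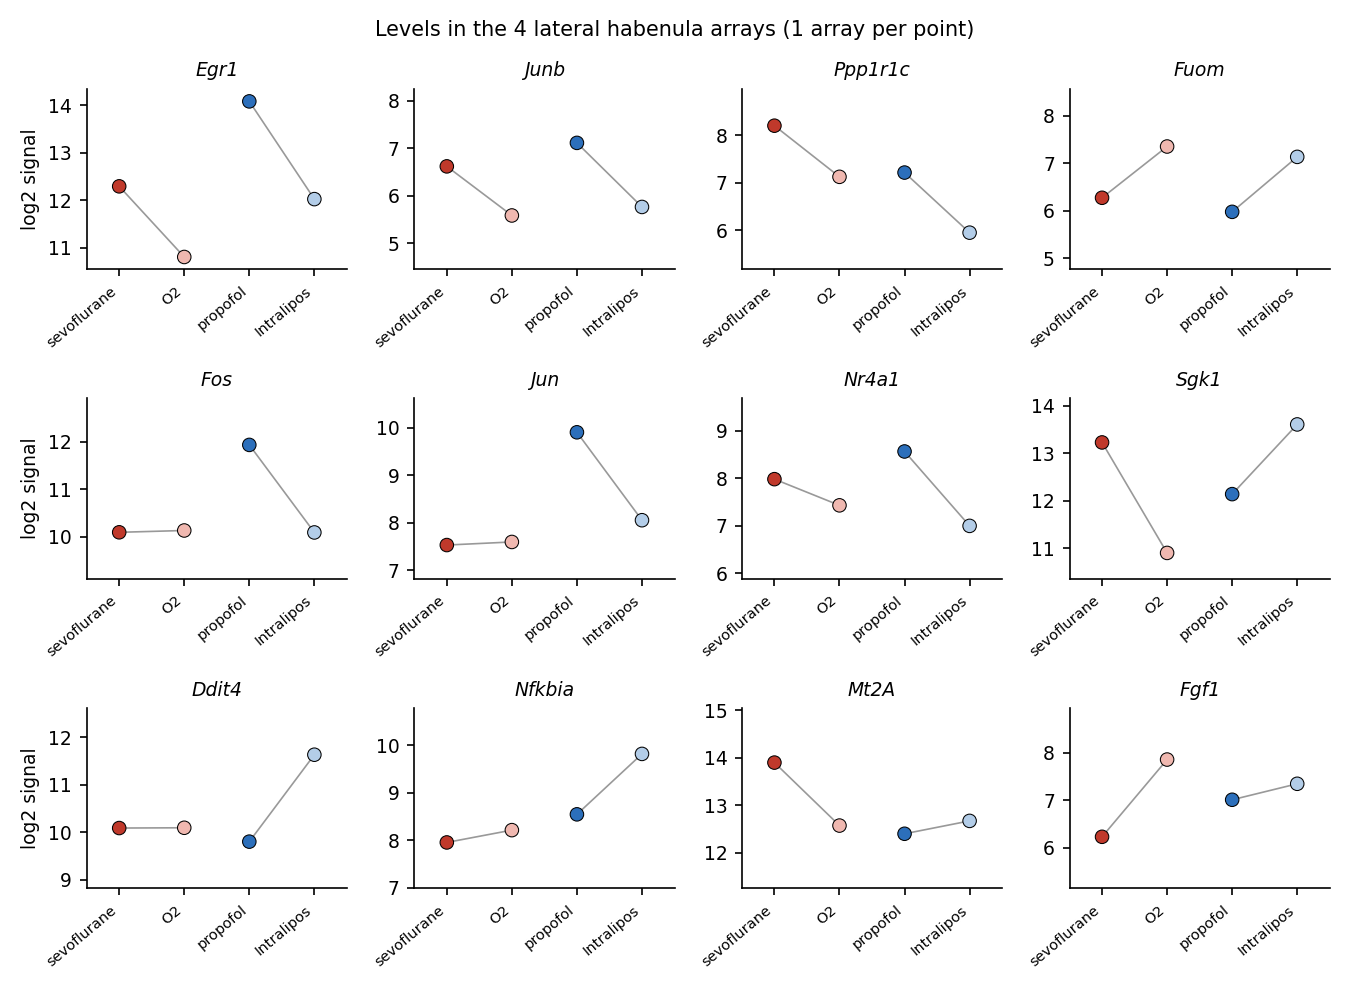
Log2 signal of 12 named genes in the 4 lateral habenula arrays, 1 array per point, with each anesthetic joined by a line to its own control and axes of equal height. Egr1 and Junb are higher with each anesthetic than with its own control. Fos and Jun are higher with propofol than with Intralipos and near equal in the sevoflurane and O2 arrays. Sgk1 is higher with sevoflurane than with O2, at 10.90, and lower with propofol than with Intralipos.

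Whether the mean anesthetic difference in the LHb exceeded the spread between both anesthetics was tested over all 16 arrays, with the 8 pairs of anesthetic and control as blocks and 1 effect per region (limma, 4 residual degrees of freedom, Benjamini-Hochberg adjustment over all genes). No gene passed an adjusted p of 0.05 (0.0% of genes); at an unadjusted p under 0.05 there were 325 higher and 279 lower genes, 4.02% of all. The mean effects were 1.77 ± 0.65 for Egr1, 1.19 ± 0.40 for Junb, 1.17 ± 0.35 for Ppp1r1c and -1.12 ± 0.32 for Fuom (log2 ± moderated SE, adjusted p = 0.9998 each). Since these genes were chosen by the same differences, the values describe their size only. The 5 higher genes with the smallest p, none past the threshold, were Mc3r, Baz1a, Ercc1, Tac3 and Or5p50. Mc3r, the melanocortin 3 receptor gene, had 6.87 with sevoflurane, against 5.98 with O2, and 7.27 with propofol, against 6.33 with Intralipos, a mean effect of 0.92 ± 0.20. The 5 lower ones were Bcl2a1, Trpc5, Psg19, Pih1d2 and Gad2. Genes of both directions were picked here by p in this same fit, so their effects describe size only. Trpc5, a cation channel gene, had 6.78 with sevoflurane, against 7.63 with O2, and 6.72 with propofol, against 8.05 with Intralipos, a mean effect of -1.09 ± 0.23. Gad2, which encodes a GABA-synthesizing enzyme, had 4.98 with sevoflurane, against 5.78 with O2, and 5.19 with propofol, against 6.67 with Intralipos, a mean effect of -1.15 ± 0.26. All LHb levels of Gad2, Bcl2a1, Psg19 and Or5p50 lay below the median of all gene values, 6.86.

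The other regions gave values of the shared genes in arrays that did not choose them. Egr1 and Junb were higher with the anesthetic in 6 of 6 pairs outside the LHb, as were 2.29% of all genes. The mean effect outside the LHb was 2.94 ± 0.43 for Egr1 and 1.45 ± 0.22 for Junb, both at an adjusted p of 0.0646 (limma, 12 arrays, 6 residual degrees of freedom), just short of the threshold. No gene passed it (0.0% of genes), with 533 higher and 385 lower at an unadjusted p under 0.05. That count differed under other settings: with genes at or above the median level, Egr1 and Fos passed, with trended and robust variances Fos and Junb passed, and without MHb Junb alone did. Ppp1r1c was higher in 4 of 6 outside pairs (0.34 ± 0.18, adjusted p = 0.8196), and Fuom was lower in 1 of 6 (0.37 ± 0.17, adjusted p = 0.8113).

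By region, Egr1 with sevoflurane was 1.49 log2 higher in LHb, against 3.04 in MHb, 3.91 in Sol and 5.17 in MVe. The propofol difference was 2.06 in LHb, against 0.11 in MHb, 0.87 in Sol and 4.56 in MVe. The LHb thus had the smallest of 4 differences with sevoflurane and came after MVe with propofol. Junb followed the same order, with 1.03 in LHb, against 1.10, 2.28 and 3.02 in MHb, Sol and MVe with sevoflurane, and 1.35 in LHb, against 0.11, 0.76 and 1.39 with propofol. The difference itself, LHb minus the mean of the other regions, was -2.55 ± 1.22 for Egr1 with sevoflurane (adjusted p = 0.9998) and 0.21 ± 1.22 with propofol (adjusted p = 0.9994), so neither passed. These SEs come from the spread among the other regions alone (6 residual degrees of freedom), since each LHb treatment had 1 array. The fit assumes that the LHb arrays vary like those of the other regions. The propofol value has no settled sign: it was -0.66 without MHb, -0.28 without Sol and 1.57 without MVe. The sevoflurane value lay between -3.06 and -1.99 when a region was left out.

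Fuom had opposite signs in and outside the LHb in most pairs. With sevoflurane its difference was -1.08 in LHb, against 0.43, 0.48 and 0.98 in MHb, Sol and MVe, and with propofol it was -1.16 in LHb, against 0.49, 0.62 and -0.77. Its mean effect in LHb minus the other regions was -1.49 ± 0.35 (limma, adjusted p = 0.9994). Fuom was chosen by its LHb differences, so this value describes size only. Ppp1r1c was 1.08 higher in LHb with sevoflurane, against 1.45, 0.30 and 0.52, and 1.27 higher in LHb with propofol, against -0.19, 0.62 and -0.64. Across all genes, no difference between LHb and the other regions passed the threshold for sevoflurane, for propofol or for their mean (0.0% each; at an unadjusted p under 0.05 there were 478, 617 and 553 genes). The LHb pairs had the fewest genes past 1 log2 of all regions. With sevoflurane there were 155 in LHb, against 223 in MHb, 207 in Sol and 542 in MVe, and with propofol 235, against 327, 377 and 256.

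**Figure D3:**
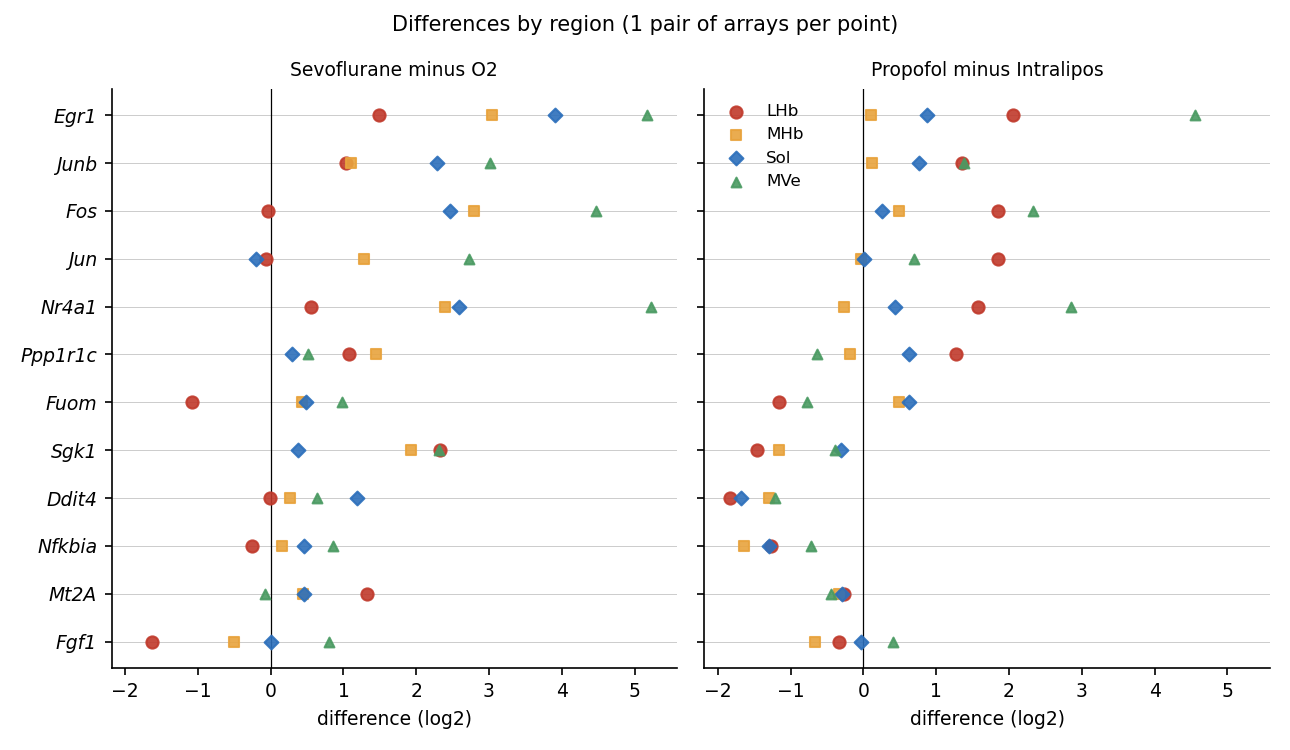
Differences of 12 named genes in each region, with sevoflurane minus O2 on the left and propofol minus Intralipos on the right, in log2 units and 1 pair of arrays per point. Egr1 and Junb lie right of 0 in all 8 pairs, Sgk1 lies right of 0 in 4 of 4 sevoflurane pairs and left of 0 in 4 of 4 propofol pairs, and the LHb points of Fuom lie left of 0 in both panels.

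Fos and Jun were past 1 log2 with propofol and near 0 with sevoflurane in the LHb. Fos, the AP-1 partner of Jun, had 11.94 with propofol, against 10.09 with Intralipos, and 10.09 with sevoflurane, against 10.13 with O2. It was 3.59-fold higher with propofol and differed by -0.04 log2 with sevoflurane, whereas the sevoflurane differences in MHb, Sol and MVe were 2.79, 2.47 and 4.47. LHb minus the other regions for Fos with sevoflurane was -3.28 ± 0.89 (limma, adjusted p = 0.9998), which did not pass. Jun had 9.90 with propofol, against 8.05 with Intralipos, and 7.53 with sevoflurane, against 7.59 with O2. Nr4a1, an orphan nuclear receptor of the same class, had 8.56 with propofol, against 6.99 with Intralipos, and 7.98 with sevoflurane, against 7.43 with O2, so that it was also 0.55 log2 higher with sevoflurane. For these 3 genes the propofol array stood above the 3 other LHb arrays, a ranking across the sets that also carries any offset between them.

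Of 49 measured immediate early genes, 3 were at least 1 log2 higher with sevoflurane (Egr1, Junb and Ccn1) and 5 with propofol (Egr1, Jun, Fos, Nr4a1 and Junb). None was lower by that size in either pair. Egr1 was given beforehand as a response gene of these arrays, so its part in both counts was known in advance. Among all genes 0.539% were higher by that size with sevoflurane and 0.865% with propofol, and 0.492% and 0.698% were lower. The list's medians were 0.07 with sevoflurane and 0.09 with propofol, beside 0.01 in both for all genes. Of the 49, 29 were above 0 with sevoflurane and 28 with propofol, beside 7632 and 7779 of all 15037 genes, so by sign the class stood near all genes. Only 19 of the 49 reached the median of all gene values in all 4 LHb arrays, beside 6998 of all 15037 genes. Many of these values thus lie in the dim part of the scale. Ccn1, a secreted matrix protein gene, had 5.28 with sevoflurane, against 3.97 with O2, both low on the scale. Nr4a3 had 10.73 with propofol, against 9.74 with Intralipos, and 9.38 with sevoflurane, against 9.47 with O2. The growth arrest gene Gadd45g was lower with propofol, at 5.92, against 6.86 with Intralipos.

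Sgk1 had the highest sevoflurane difference of all genes in the LHb. This kinase gene is induced by glucocorticoids and regulates ion channels and transporters. Its level was 13.23 with sevoflurane, against 10.90 with O2, and 12.14 with propofol, against 13.61 with Intralipos. It was 5.02-fold higher with sevoflurane and differed by -1.47 log2 with propofol. The Intralipos array held the highest of the 4 levels, a ranking across the sets that also carries any offset between them. Sevoflurane was higher in 4 of 4 regions (2.33 in LHb, against 1.92, 0.38 and 2.32 in MHb, Sol and MVe), and propofol was lower in 4 of 4 (-1.47, against -1.16, -0.31 and -0.39). Within the LHb the sevoflurane effect minus the propofol effect was 3.80 ± 0.78, a contrast added after the values were seen (limma, adjusted p = 0.9999). The SE of this contrast also came from the other regions alone, and the LHb arrays were assumed to vary like those. No gene passed in that contrast (0.0%), with 553 genes at an unadjusted p under 0.05.

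In all, 5 genes passed 1 log2 with opposite signs, Sgk1 among them. Np4, a neutrophil defensin gene, had 6.45 with sevoflurane, against 5.35 with O2, and 5.48 with propofol, against 6.75 with Intralipos. Kcnj2, which encodes the inward rectifier Kir2.1, had 5.35 with sevoflurane, against 6.69 with O2, and 6.69 with propofol, against 5.38 with Intralipos. Ctxn3, a cortexin gene of neurons, had 7.20 with sevoflurane, against 8.48 with O2, and 8.19 with propofol, against 7.15 with Intralipos. For Tvp23a, a Golgi membrane protein gene, the differences were -1.02 and 1.16. In Kcnj2 and Np4 all 4 levels lay below the median of all gene values.

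The glucocorticoid-responsive list leaned apart between the anesthetics, a difference not tested for the list. Of 24 measured genes, 17 were above 0 with sevoflurane (median 0.16) and 19 were below 0 with propofol (median -0.15), beside 50.8% and 48.3% of all genes. With sevoflurane 2 were at least 1 log2 higher, Sgk1 and Mt2A (0.539% of all genes were), and none lower. With propofol 3 were at least 1 log2 lower, Ddit4, Sgk1 and Nfkbia (0.698% of all genes were), and none higher. Sgk1 was given beforehand as a response gene of these arrays, so its part in both counts was known in advance. Ddit4, which encodes an inhibitor of the growth kinase complex mTORC1, had 9.80 with propofol, against 11.63 with Intralipos, and 10.09 with sevoflurane, against 10.09 with O2. Its -1.83 was the lowest propofol difference of all genes in the LHb, and it was lower with propofol in MHb, Sol and MVe too, with differences of -1.304, -1.69 and -1.22. Here the Intralipos array stood above the 3 other LHb arrays, a ranking across the sets that also carries any offset between them.

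Nfkbia, which encodes the inhibitor of NF-kB, had 8.54 with propofol, against 9.82 with Intralipos, and 7.95 with sevoflurane, against 8.21 with O2. It too was lower with propofol in the other regions, with differences of -1.64 in MHb, -1.304 in Sol and -0.72 in MVe. Mt2A, a zinc-binding metallothionein gene, had 13.90 with sevoflurane, against 12.57 with O2, and 12.40 with propofol, against 12.67 with Intralipos. The list's medians outside the LHb were 0.11, 0.20 and 0.41 in MHb, Sol and MVe with sevoflurane and -0.30, -0.34 and -0.17 with propofol. No member passed any of the limma tests. Of 18 measured NF-kB and inflammatory genes, Nfkbia alone passed 1 log2 in either pair, lower with propofol (0.698% of all genes were).

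Fgf1 had the lowest sevoflurane difference of all genes in the LHb. Fgf1 encodes acidic fibroblast growth factor, a ligand of all FGF receptors. It had 6.23 with sevoflurane, against 7.85 with O2, and 7.01 with propofol, against 7.34 with Intralipos. The differences were -1.63 and -0.34 in LHb, against -0.51 and -0.67 in MHb, 0.01 and -0.04 in Sol and 0.80 and 0.41 in MVe. Its mean effect in the LHb was -0.98 ± 0.28 (limma, adjusted p = 0.9998), and LHb minus the other regions with sevoflurane was -1.73 ± 0.49 (adjusted p = 0.9998). Fgf1 was given beforehand and had the lowest LHb difference with sevoflurane, so both values describe size only. Of 28 measured FGF ligands, receptors and feedback genes, the receptor gene Fgfr4 was also lower with sevoflurane, at 4.91 against 6.33 with O2. The ligand gene Fgf20 was lower with propofol, at 4.44 against 5.62 with Intralipos. These levels of Fgfr4 and Fgf20 lay below the median of all gene values. On the list 13 of the 28 reached it in all 4 LHb arrays, beside 6998 of all 15037 genes. By at least 1 log2, 2 of the 28 were lower with sevoflurane and 1 with propofol, beside 0.492% and 0.698% of all genes, and none was higher. Fgf1 was given beforehand as a response gene of these arrays, so its part in the sevoflurane count was known in advance. The list's medians were -0.09 with sevoflurane (18 of 28 below 0) and -0.20 with propofol (22 of 28 below 0), beside 7404 and 7258 of all 15037 genes. Fgf2, a related ligand gene, had 12.31 with sevoflurane, against 12.03 with O2, and 11.38 with propofol, against 12.29 with Intralipos.

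Genes past 1 log2 with 1 anesthetic, and under 0.5 log2 or of the opposite sign with the other, made up most of each pair. An opposite sign of any size is included, so the 5 genes past 1 log2 in opposite directions count with each anesthetic. Zfyve16, counted with propofol alone, differed by -0.80 log2 with sevoflurane. With sevoflurane there were 63 higher and 63 lower, of which 26 and 19 reached the median of all gene values in the higher array of the pair. With propofol there were 113 higher and 94 lower, of which 69 and 29 reached it. Another 25 genes past 1 log2 with sevoflurane and 24 with propofol lay in neither class, having the same sign and 0.5 to 1 log2 in the other pair.

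Among the bright genes higher with sevoflurane alone were, after Sgk1, the phospholipase D family gene Pld4 (8.68, against 7.30 with O2), Mt2A, the innate receptor gene Tlr2 (7.05, against 5.84), the interleukin 4 receptor gene Il4r (7.09, against 5.89), and the transcription factor genes Zkscan8 (8.15, against 6.96) and Pou3f4 (9.29, against 8.11). In all 5 of those given with levels here the propofol difference lay between -0.24 and 0.18. Among those lower with sevoflurane alone were, after Fgf1, the cytochrome P450 gene Cyp2j10 (7.45, against 8.77 with O2), Ctxn3, the centrosomal gene Cdk5rap2 (6.71, against 7.99), the cell polarity gene Scrib (7.58, against 8.81), the somatostatin gene Sst (6.20, against 7.42), the potassium channel subunit gene Kcnf1 (7.27, against 8.48) and the endosomal gene Plekhf2 (6.15, against 7.35).

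With propofol alone, the bright genes at the top after Jun and Fos were the synaptotagmin gene Syt15 (9.67, against 8.05 with Intralipos), the endosomal gene Zfyve16 (7.34, against 5.79), the secreted protein gene Nell1 (9.10, against 7.57), the dynactin gene Dctn3 (8.03, against 6.53), the nicotinic receptor subunit gene Chrnb4 (9.95, against 8.58) and Sdr39u1 (7.63, against 6.27), a dehydrogenase family gene. In Zfyve16, Nell1, Dctn3, Chrnb4 and Sdr39u1 it was the Intralipos array that stood farthest from the other 3. At the other end, after Ddit4, were the protein kinase C gene Prkcd (6.76, against 8.29 with Intralipos), the filamin-binding gene Filip1 (5.52, against 7.0003), Sgk1, the neuronal morphology gene Srgap2 (8.27, against 9.60), the keratin-associated gene Krtap5-8 (5.56, against 6.88), the homeobox gene Meis1 (6.54, against 7.86) and the nuclear envelope gene Tor1aip2 (6.13, against 7.44). Srgap2 was lower with propofol in LHb only among the 4 regions, with differences of 0.13, 0.39 and 0.26 in MHb, Sol and MVe. LHb minus the other regions was -1.59 ± 0.32 (limma, adjusted p = 0.9994). Srgap2 was named by its LHb difference and by its p in that fit, so this value describes size only.

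A difference within a pair can lie with either array. After each array was centred on its median, the array farthest from the median of the other 3 was counted, a description chosen after the values were seen that also carries any gene-level offset between the sets. Among genes higher with sevoflurane alone the sevoflurane array was farthest in 36 of 63 and the O2 array in 26, and among those lower in 41 and 21 of 63. Among genes higher with propofol alone the propofol array was farthest in 63 of 113 and the Intralipos array in 48. Among those lower with propofol alone the propofol array was farthest in 29 of 94 and the Intralipos array in 64, so that a control array was farthest in 69.1% of that class, beside 47.9% of all genes.

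Of 18 measured interferon-stimulated genes, 14 were below 0 with propofol against Intralipos in the LHb, with a median of -0.76, beside 48.3% and a median of 0.01 for all genes. Of the 18, 4 were at least 1 log2 lower, Oasl2, Oas1a, Irf7 and Mx1 (0.698% of all genes were), while none was higher by that size. Oas1a, a sensor of double-stranded RNA, had 4.72 with propofol, against 6.06 with Intralipos, and 6.74 with sevoflurane, against 6.83 with O2. Mx1, an antiviral GTPase gene, had 4.82 with propofol, against 5.87 with Intralipos, and 5.22 with sevoflurane, against 5.48 with O2. With sevoflurane the median was -0.07 and no member passed 1 log2. The propofol medians elsewhere were -0.62 in MHb, -0.40 in Sol and -0.05 in MVe. Only 2 of the 18 reached the median of all gene values in all 4 LHb arrays, so most of these values lie in the dim part of the scale, and none passed a limma test.

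**Figure D4:**
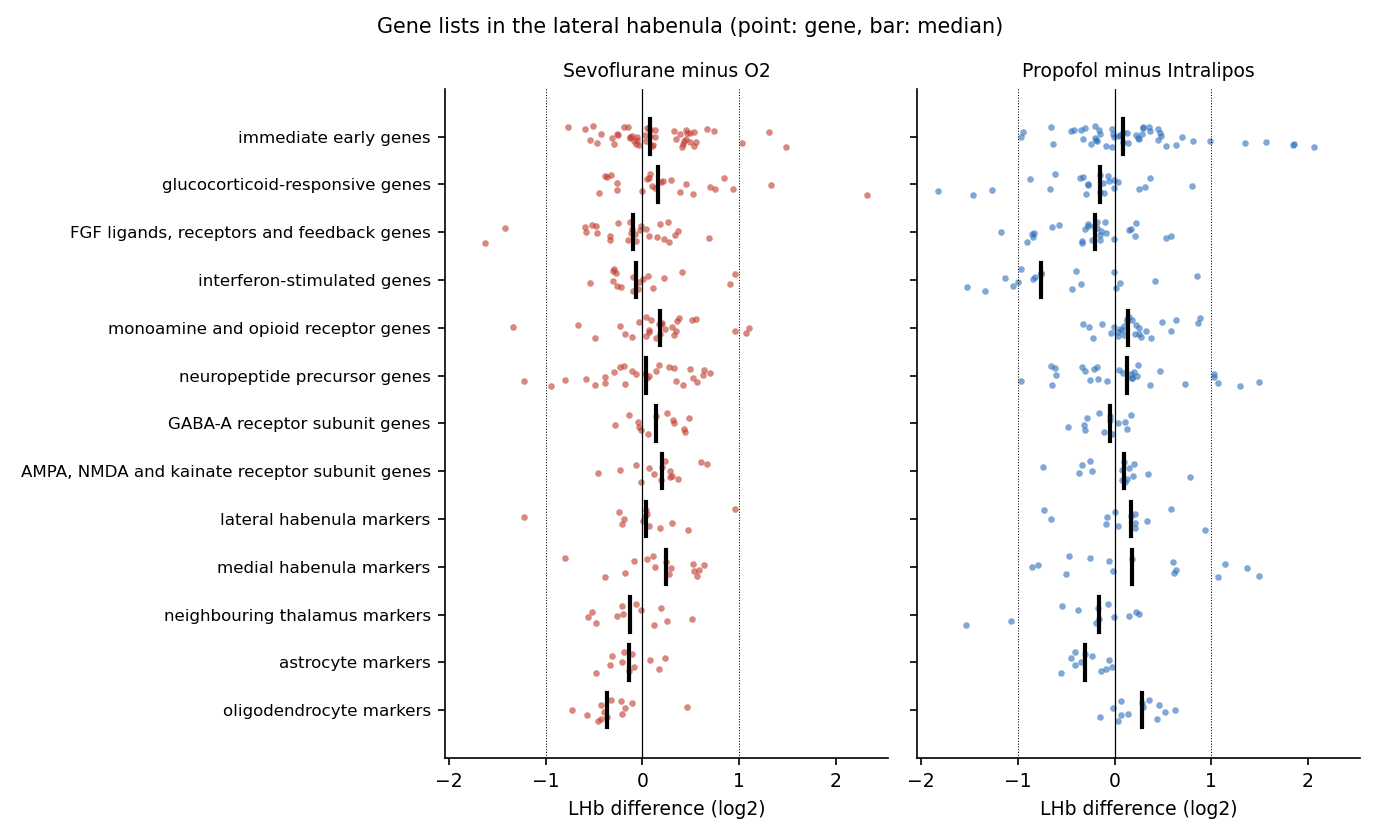
Each point is a gene of the named list in the lateral habenula, with sevoflurane minus O2 on the left and propofol minus Intralipos on the right, in log2 units, black bars at the list medians and dotted lines at 1 log2. The interferon-stimulated genes have a median of -0.76 with propofol, the oligodendrocyte markers have medians of -0.37 and 0.28, and the other medians lie within 0.31 of 0.

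The receptor and channel genes on which anesthetics and habenular firing depend form short lists. No GABA-A receptor subunit gene of 13, no AMPA, NMDA or kainate receptor subunit gene of 15 and no leak potassium channel gene of the Kcnk family of 13 passed 1 log2 in either pair. With 0.539% of all genes higher and 0.492% lower by that size with sevoflurane, and 0.865% and 0.698% with propofol, a count of 0 in lists of this length is near the background and not a result about them. The GABA-A medians were 0.14 with sevoflurane and -0.05 with propofol, and the Kcnk medians -0.17 and -0.23. Among 15 HCN, T-type calcium and inward rectifier channel genes, Kcnj2 passed in both pairs with opposite signs, Kcnj9 was lower with sevoflurane at 5.11, against 6.39 with O2, and Kcnj12 was lower with propofol at 5.40, against 6.73 with Intralipos. Kcnj10, the glial channel Kir4.1, had 11.90 with sevoflurane, against 11.86 with O2, and 11.74 with propofol, against 12.47 with Intralipos.

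Of 28 monoamine and opioid receptor genes, 21 were above 0 with sevoflurane and 22 with propofol, 16 of them in both, with medians of 0.18 and 0.14. Of all genes, 50.8% were above 0 with sevoflurane, 51.7% with propofol and 26.6% in both. The dopamine receptor gene Drd1 had 7.97 with sevoflurane, against 6.87 with O2, and 8.16 with propofol, against 7.91 with Intralipos. The serotonin receptor gene Htr3a had 6.06 with sevoflurane, against 4.98 with O2, and Drd3 was lower with sevoflurane at 3.89, against 5.22 with O2. These levels of Htr3a and Drd3 lay below the median of all gene values. Only 9 of the 28 reached it in all 4 LHb arrays, beside 6998 of all 15037 genes. Oprm1, the mu opioid receptor gene, had 12.37 with sevoflurane, against 11.85 with O2, and 11.17 with propofol, against 10.54 with Intralipos.

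Of 28 neuropeptide precursor genes, 5 were at least 1 log2 higher with propofol (0.865% of all genes were) and 1 lower with sevoflurane (0.492% of all genes were). The enkephalin precursor gene Penk had 10.26 with propofol, against 8.96 with Intralipos, and 9.31 with sevoflurane, against 10.26 with O2. Adcyap1, the precursor gene of PACAP, had 12.58 with propofol, against 11.55 with Intralipos, and 11.52 with sevoflurane, against 11.49 with O2. The others were Tac3, Tac1 and Nts, and Sst was the gene lower with sevoflurane. Only 8 of the 28 reached the median of all gene values in all 4 LHb arrays, beside 6998 of all 15037 genes.

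Within the same pairs, markers of adjacent tissue differed. Of 15 medial habenula markers, 4 were at least 1 log2 higher with propofol, Tac3 at 9.86 against 8.37 with Intralipos, Chrnb4 at 9.95 against 8.58, Gng8 at 13.47 against 12.32, and Tac1 at 11.74 against 10.66. Higher by that size were 0.865% of all genes. With propofol the list was mixed: its median was 0.18, with 8 markers above 0 and 7 below (51.7% of all genes were above). Of those lower in LHb than in MHb, Chrna3, Slc5a7 and Nhlh2 were also above 0, by 0.64, 0.62 and 0.60. Chrnb3 was below at 8.77, against 9.63, as were Chrna5 at 4.28, against 5.07, Chat and Slc18a3. Markers not lower in LHb without overlap were Trh, above 0, and Calb2, Cck and Rspo2, below. With sevoflurane the list's median was 0.25, with 11 above 0 and 4 below (50.8% of all genes were above), and none passed 1 log2. In both pairs 6 of the 15 were above 0, beside 26.6% of all genes, and 2 were below. Of 12 thalamus markers, Prkcd and Lef1 were at least 1 log2 lower with propofol (0.698% of all genes were). Tac1 and Tac3 are thus on both the peptide list and the medial habenula list, and the part of the dissection border in these values was not tested. Of 12 choroid plexus markers, 1 was at least 1 log2 higher and 1 lower with sevoflurane (0.539% and 0.492% of all genes were), and none passed with propofol. Clic6, a gene of the chloride intracellular channel family, had 4.87 with sevoflurane, against 3.63 with O2, and 5.12 with propofol, against 6.04 with Intralipos. Ttr had 6.62 with sevoflurane, against 7.68 with O2, and 8.42 with propofol, against 8.65 with Intralipos.

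Glial markers leaned one way within a pair by less than 1 log2. Among all genes 49.2% were below 0 with sevoflurane, 48.3% below and 51.7% above 0 with propofol, and both medians were 0.01. Of 11 astrocyte markers, 11 were lower with propofol, with a median of -0.31, and 8 were lower with sevoflurane, with a median of -0.14. Gfap, the astrocyte filament gene, had 14.24 with propofol, against 14.79 with Intralipos, and 14.00 with sevoflurane, against 14.47 with O2. Of 13 oligodendrocyte markers, 12 were lower with sevoflurane (median -0.37) and 11 higher with propofol (median 0.28). Their medians with sevoflurane and propofol had the same signs in MHb (-0.51 and 0.24). In Sol these were 0.04 and -0.02, and in MVe 0.14 and -0.10. In the LHb the myelin gene Mog had 14.51 with sevoflurane, against 14.94 with O2, and 14.43 with propofol, against 14.00 with Intralipos. The part of glial markers in the differences of other genes was not tested.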

How the data were processed

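Total RNA from laser-cut tissue was labelled (100 ng) and hybridised to Affymetrix arrays, per the labels' protocols. The deposited values are log2 signals, a scale read from the values themselves. The submitters' processing notes name Affymetrix Expression Console 1.3.0. How probes were summarized is not given in the sources used here, nor is a genome build. The table held 24834 probe sets: 1646 control sets (identified after the files were seen) and 8139 without a gene symbol here were left out, and 15049 had 1 symbol, all matched by gene identifier with 0 symbols updated. The brightest probe per symbol over the 16 arrays gave 15037 genes. No filter or further scaling was applied. The number of arrays limits the precision.

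Shared genes had the same sign and at least 1 log2 in both LHb pairs; genes of 1 anesthetic had at least 1 log2 there and under 0.5, or the opposite sign, in the other. Both anesthetics stood in for replicates of anesthesia. Tests were limma 3.58.1 fits (lmFit, eBayes, two-sided, R 4.3.3) with Benjamini-Hochberg adjustment over all genes and a threshold of 0.05, and were tested on simulated data. They measure the spread between these arrays, which may share rats. For LHb minus the other regions, and for the sevoflurane effect minus the propofol effect in the LHb, that spread came from the other regions alone. Lists (24, with 393 of 431 genes measured) are described by counts and medians. Genes were named by a rule: the given genes Egr1, Sgk1 and Fgf1; shared genes (up to 12 per direction) and up to 8 per direction of each other class by size, where the higher array reached the median level; the 5 smallest p per direction; up to 4 members per list described; and the nearest genes at the limit. Not every gene the rule names is reported here. Members, lists and rule were chosen with earlier results of these data known. Others named (Nr4a3, Gadd45g, Ccn1, Fgf2, Kcnj10, Oprm1, Drd1, Drd3, Htr3a, Penk, Adcyap1, Gfap, Mog, Ttr and the markers) were picked from the lists, some after their values were seen. Alternatives covered centring, quantile scaling, probe choice, dim genes, limits, variance model and left-out arrays. Python 3.11.15, pandas 2.3.3, numpy 2.4.6 and matplotlib 3.10.9 were used.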

Additional observations from a re-analysis of the deposited data

Results flagged for a closer look

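Probe sets without a gene symbol here entered no comparison above. Of 8139 such probes, 1 was at least 1 log2 higher in both LHb pairs and 1 lower, together 0.0246%. TC0700002322.rn.2 had 5.16 with sevoflurane, against 3.96 with O2, and 4.88 with propofol, against 3.80 with Intralipos, a mean difference of 1.14. TC1000002051.rn.2 had 5.06 with sevoflurane, against 6.35 with O2, and 3.76 with propofol, against 5.29 with Intralipos, a mean difference of -1.41. Both stand outside the main measurement and were picked out because each passed 1 log2 with the same sign in both pairs.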

How the results depend on the processing

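With 1 array per group, the counts past 1 log2 have no test and move with the limit. Each array centred on its median gave 2 shared lower genes in place of 1. At 1.5 log2 there were 0 shared genes in either direction, 1 higher and 1 lower with sevoflurane alone, and 6 higher and 5 lower with propofol alone. At 0.5 log2 (added after the values were seen) 156 higher and 125 lower genes were shared. Limited to genes at the median level or above in the brighter array, the single-anesthetic classes held 26 higher and 19 lower with sevoflurane and 69 higher and 29 lower with propofol. Outside the LHb, 2 genes passed with genes at or above the median level (Egr1, at 2.94, and Fos, at 2.13), 2 with trended and robust variances (Fos, at 2.13, and Junb, at 1.45), and 0 to 1 when a region was left out (Junb, at 1.86, without MHb). Reversed in sign were the LHb mean effects of Sgk1 without the sevoflurane or O2 array, at -1.47 (2.33 without the propofol or Intralipos array), and of Fos without the propofol or Intralipos array, at -0.038 (1.84 without the sevoflurane or O2 array), and the effect of Fgf1 outside the LHb, at 0.29 without MHb and 0.0076 without Sol (-0.30 without MVe). LHb minus the other regions for Egr1 with propofol also turned, at -0.66 without MHb and -0.28 without Sol (1.57 without MVe). The cause was not tested beyond the arrays left out. Of the values printed and recomputed, the other 130 of counts stayed within 1.5 times, and 459 of single genes kept their direction and side. Other scalings and probe rules moved the LHb differences of 42 named genes by at most 0.1. The 8 pairs of anesthetic and control are blocks in the tests. Beyond those blocks, a fit blocked by replicate number was not made, since the labels give no such numbers and each group had 1 array. Signal over background limits the values of dim genes, among them most interferon-stimulated genes.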
